A study of Mus musculus with 7 samples.

Results

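The genes described here build, transfer and first trim the sugar chain of N-linked glycoproteins in the endoplasmic reticulum (ER). A list of 41 genes of this pathway was taken by name, and all 41 were found among the 23347 genes of the count table. Liver RNA had been sequenced from male C57BL/6 mice, young adults when feeding began, after 15 weeks on the CDAHFD. This diet is rich in fat, lacks choline, supplies amino acids in place of protein, and brings on steatohepatitis in mice. All 7 mice received the CDAHFD and all carried B4galt1 alleles flanked by loxP sites. The 4 control mice, called WT in the sample labels, were B4galt1 flox/flox littermates. In the 3 mice labelled B4galt1 hep-/- (B4-HKO), an Alb-Cre transgene, driven by the albumin promoter, was meant to remove B4galt1 from hepatocytes, while most other cells of the liver keep the gene. The study asked what B4GALT1 in hepatocytes does in metabolic dysfunction-associated steatotic liver disease. B4GALT1 adds galactose to glycans in the Golgi, downstream of every step described below, and is not one of the 41 genes.

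N-glycosylation begins on dolichol, a long lipid of the ER membrane. Sugars are added to dolichol one after another, at first on the cytosolic face of the ER and then, once the lipid has been flipped, on the lumenal face. The oligosaccharyltransferase (OST) moves the finished glycan onto asparagines of newly made proteins, and glucosidases and a folding sensor then trim and replace its glucoses while the protein folds. Hepatocytes secrete most plasma glycoproteins and depend heavily on this pathway, and inherited defects in many of its genes cause congenital disorders of glycosylation.

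Each library came from 1 mouse. Libraries of flox/flox livers held 37838654 to 39668509 counts and those of livers labelled hep-/- held 30608271 to 34586588. Levels are given as CPM (the count as a share of the library, scaled to the same nominal size) after TMM scaling, and log2 fold changes are those of livers labelled B4galt1 hep-/- over B4galt1 flox/flox livers. A gene was called where edgeR's quasi-likelihood test gave a Benjamini-Hochberg adjusted p under 0.05, over all 15179 tested genes, and the absolute log2 fold change exceeded 0.58. The targeted gene was not evenly reduced. B4galt1 (NCBI gene 14595) stood at 48.7, 53.0, 49.2 and 51.6 CPM in flox/flox mice 1 to 4 and at 28.4, 23.9 and 53.7 CPM in hep-/- mice 1 to 3, so the library labelled hep-/- mouse 3 lay above every control in CPM. The order turned with the scaling: in deposited FPKM (counts per gene length and library total, mitochondrial reads included) that library was at 11.9, just below the controls at 12.2 to 14.0, and hep-/- mice 1 and 2 were at 6.47 and 6.52. The log2 fold change of B4galt1 was -0.52 ± 0.26 (SE) with an adjusted p of 0.181 by edgeR, and it was called, at -0.96, when hep-/- mouse 3 was left out, and by 2 of the 3 limma fits on FPKM. Counts over a whole gene do not show whether an exon was removed. Groups therefore follow the labels throughout. The 13 mitochondrially encoded genes took 5.79% ± 1.70 (SD, n = 4) of counts in flox/flox livers. Their share was 19.7% ± 4.58 (SD, n = 3) in livers labelled hep-/-, with p = 0.0286 in a two-sided exact permutation test, the smallest that 4 against 3 mice can give. Hepatocyte markers were present at high levels in every library, and 0 of 11 were called by edgeR, with 3 at an unadjusted p under 0.05 and 3 called by DESeq2 (Apoa1 and Serpina1a higher, Cps1 lower). Of 10 macrophage markers, 5 were called, all lower (Adgre1, Cd68, Lyz2, Marco and Vsig4), and 9 had fitted changes below 0, the exception being Cd14 (log2 fold change 0.16). Their summed level, to which Lyz2 gave a mean of 1004 of 1586 CPM in controls, was 1082 to 2397 CPM in flox/flox livers against 482 to 573 CPM in livers labelled hep-/-, and each of the 10 had counts in every library. Stellate cell and fibroblast, cholangiocyte and lymphocyte markers gave 0 calls by edgeR among 10, 7 and 9 tested, with 0, 0 and 1 at an unadjusted p under 0.05 and 0, 0 and 1 called by DESeq2, and 1 of 8 endothelial markers (Kdr) was called, lower, by edgeR and DESeq2. Flox/flox mouse 3 stood apart in these markers. Its endothelial sum was 310.4 CPM, against 77.9 to 117 CPM in the other controls and 110.1 to 128 CPM in livers labelled hep-/-, and its macrophage sum of 2397 CPM stood against 1082 to 1459 CPM in the other controls. The part of these shifts in the results below was not tested. In whole liver, fewer cells of a type and less RNA per cell cannot be told apart.

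All 41 genes passed the filter on low counts. Livers labelled B4galt1 hep-/- had lower mRNA of 9 of them, spread over 6 of the 7 steps of the pathway, and higher mRNA of 1. The 9 lower genes were Dhdds, Srd5a3, Mpdu1, Dpagt1, Alg10b, Rpn2, Dad1, Tusc3 and Mogs, and the higher gene was Alg11. These 10 calls are 24.4% of the 41 genes, against 15.8% of all tested genes. By direction, 22.0% of the 41 genes were called lower and 2.44% higher, against 7.83% and 8.00% of all tested genes. Fitted changes were below 0 for 31 of the 41 genes (75.6%, against 48.7% of all tested genes), and the median log2 fold change was -0.24 against 0.02 for all tested genes. The summed level of the 41 genes lay between 1285 and 1351 CPM in flox/flox livers and between 1009 and 1198 CPM in livers labelled hep-/-, without overlap. To this sum the OST gave a mean of 661 of 1327 CPM in controls and 499 of 1111 CPM in livers labelled hep-/-. Among the 7 steps, only the OST sum separated the groups. Mean sums were 93.6 and 93.9 CPM for GDP-mannose supply, and 174 and 181 CPM for glucose trimming. Single genes separated the groups without overlap in 19 of 41 cases, which is 46.3% against 28.6% of all tested genes. In 16 of them all livers labelled hep-/- were lower and in 3 all were higher, where all tested genes gave 15.0% lower and 13.6% higher.

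**Figure D1:**
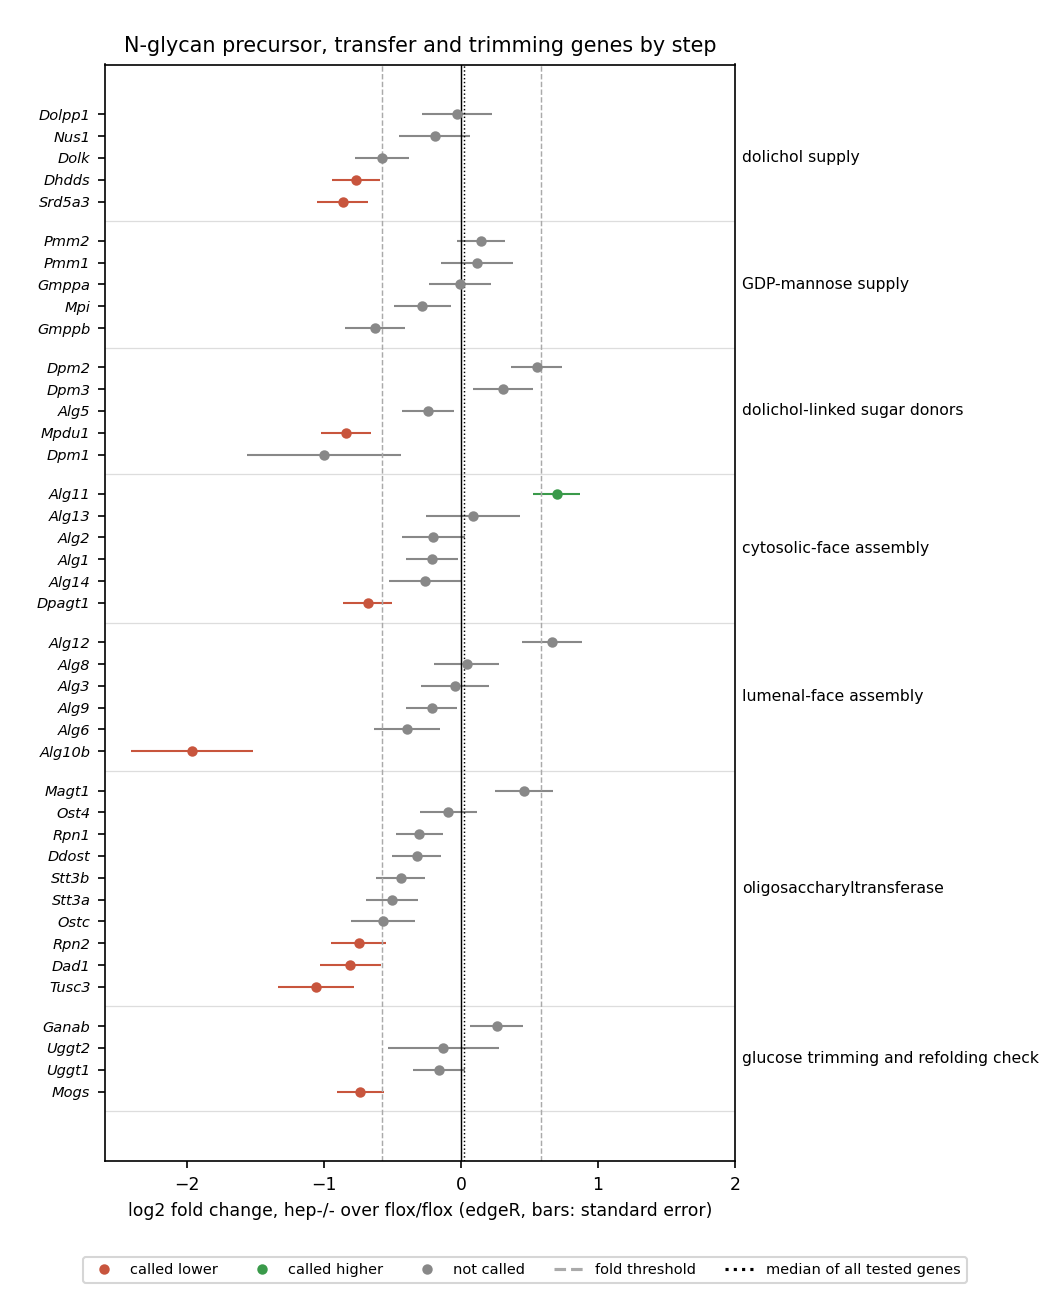
Log2 fold change of each of the 41 genes, livers labelled B4galt1 hep-/- (n = 3) over B4galt1 flox/flox livers (n = 4), grouped by step, with bars for the standard error of the edgeR fit. Dashed lines mark the fold threshold and the dotted line the median of all tested genes (0.02); 9 genes called lower lie between -0.68 and -1.97, and Alg11, the one called higher, at 0.70.

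The number of calls depended on single mice. It fell from 10 to 2 without flox/flox mouse 2, to 4 without hep-/- mouse 2 and to 6 without hep-/- mouse 1. These counts are 4.88%, 9.76% and 14.6% of the 41 genes, against 5.90%, 7.76% and 11.7% of all genes tested in the same fits, so that without flox/flox mouse 2 the share of the 41 genes lay below that of all genes. In the lower direction alone the shares were 4.88%, 7.32% and 12.2% against 3.16%, 3.84% and 5.21%. The number was 9, all lower, without hep-/- mouse 3, whose B4galt1 level lay above the controls in CPM and below them in FPKM. These are 22.0% of the 41 genes, against 13.8% of all genes in that fit. The number was 7 to 11 without flox/flox mouse 1, 3 or 4. The shares there were 26.8%, 17.1% and 17.1%, against 16.1%, 9.36% and 10.3% of all genes. With the mitochondrially encoded genes removed before scaling, the number was again 10. Over all tested genes the count also fell from 2404 to 885 without flox/flox mouse 2. Mpdu1 and Alg10b were called whichever of the 7 mice was left out. Among livers labelled hep-/-, mouse 2 had the lowest level of 8 of the 9 lower genes and mouse 3 the highest of the 3 for 7 of them. None of the 9 genes reached the flox/flox range in hep-/- mouse 3.

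The first step makes dolichol and keeps it phosphorylated, and 2 of its 5 genes were lower. Dhdds (NCBI gene 67422), the catalytic subunit of the enzyme that makes the polyprenol chain, stood at 20.8, 22.6, 24.1 and 22.3 CPM in flox/flox mice 1 to 4 and at 12.9, 11.9 and 14.8 CPM in hep-/- mice 1 to 3. Every liver labelled hep-/- lay well below every control, and the log2 fold change was -0.77 ± 0.18 (SE; adjusted p = 0.0168, edgeR). The call was lost without flox/flox mouse 2 and without hep-/- mouse 2. Srd5a3 (NCBI gene 57357), a reductase needed to turn polyprenol into dolichol, gave 16.4, 17.9, 15.5 and 17.5 CPM against 9.67, 8.38 and 9.67 CPM. The groups were tight and did not overlap, with a log2 fold change of -0.87 ± 0.19 (SE; adjusted p = 0.0127, edgeR), a call that was lost without flox/flox mouse 2 and held without each of the others. Nus1, the partner subunit of Dhdds, ranged widely in both groups, at 44.7, 57.1, 78.0 and 65.0 CPM against 59.8, 34.4 and 66.4 CPM, and was not called (log2 fold change -0.19; adjusted p = 0.634, edgeR). Dolk, the kinase that activates dolichol, was at 12.3, 13.1, 11.7 and 15.2 CPM against 9.32, 8.20 and 8.72 CPM. These groups did not overlap, but Dolk missed both thresholds narrowly (log2 fold change -0.58, just inside the limit; adjusted p = 0.0661, edgeR). All 3 limma fits on FPKM called Dolk lower (log2 fold changes -0.58 to -0.69), and DESeq2 and voom did not. Dolpp1, which recycles the spent carrier, overlapped between groups at 6.86 to 11.4 and 6.82 to 10.9 CPM (log2 fold change -0.03).

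Promoter sequence is shown for the genes called lower that carried letters linked to ER stress or to E-box binding factors, since several genes of this pathway are known targets of the unfolded protein response (UPR). Promoters from RefSeq (mouse GRCm38.p6) covered 300 bases, from 250 before to 50 after each annotated start, and were found for 35 of the 41 genes, with 36 promoters in all. The motifs searched on both strands were the ER stress response element (ERSE, CCAAT and CCACG with any 9 bases between them), its variant ERSE-II (ATTGG and CCACG with any 1 base between them), the core of the UPR element TGACGTG and the E-box CACGTG, and no match overlapped another. For the 2 lower dolichol genes, the 250 bases before the start are printed 5′ to 3′ on the gene's strand with the matches in capitals. Dhdds, at chr4:134000883-134001132 on the minus strand, held the E-box and, 9 to 3 bases before the start, the UPR element core. Srd5a3, at chr5:76140023-76140272 on the plus strand, held the E-box.
Dhdds: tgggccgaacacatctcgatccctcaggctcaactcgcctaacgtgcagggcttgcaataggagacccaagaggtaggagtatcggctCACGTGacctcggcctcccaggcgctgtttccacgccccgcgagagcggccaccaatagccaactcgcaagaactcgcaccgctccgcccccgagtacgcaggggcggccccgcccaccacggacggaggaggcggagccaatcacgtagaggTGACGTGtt
Srd5a3: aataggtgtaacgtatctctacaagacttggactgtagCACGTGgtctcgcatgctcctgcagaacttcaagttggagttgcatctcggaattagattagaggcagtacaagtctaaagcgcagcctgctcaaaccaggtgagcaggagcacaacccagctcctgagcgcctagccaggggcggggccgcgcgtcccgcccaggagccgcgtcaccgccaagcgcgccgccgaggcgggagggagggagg
The UPR element core was found in 3 of the 36 promoters (Dhdds, Dpm2 and Mogs; 8.33%, against 2.01% of all 32851 promoters). The E-box was found in 6 (Alg1, Dhdds, Dolk, Dpm2, Magt1 and Srd5a3; 16.7% against 7.15%). Among genes with these letters, Dhdds, Mogs and Srd5a3 were called lower and the other genes were not called. Of the 8 promoters of genes called lower, 2 held the UPR element core and 2 the E-box, Dhdds holding both. A match describes the letters only, and no binding was measured.

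GDP-mannose, the source of every mannose of the precursor, is made from fructose phosphate in the cytosol, and 0 of its 5 genes were called by edgeR. At an unadjusted p under 0.05 there was 1, Gmppb, which DESeq2 and limma on FPKM also called and voom did not. Gmppb, the catalytic subunit of GDP-mannose pyrophosphorylase, stood at 9.57, 7.58, 9.56 and 10.002 CPM in flox/flox livers and at 6.33, 5.49 and 5.95 CPM in livers labelled hep-/-. The groups did not overlap (log2 fold change -0.63 ± 0.22, SE; adjusted p = 0.0690, edgeR), and 33.6% of its annotated exonic bases are shared with Rnf123 on the other strand, so reads of these 2 genes may be mixed if strand was not used in counting. Gmppa, the regulatory partner, overlapped fully, at 27.8, 22.6, 15.7 and 22.6 CPM against 19.0, 27.8 and 19.5 CPM (log2 fold change -0.01). The phosphomannomutases Pmm1 and Pmm2 also overlapped. Pmm1 was at 4.35, 4.94, 3.56 and 3.45 CPM against 4.42, 4.16 and 4.67 CPM (log2 fold change 0.12). Pmm2, the form mutated in the most common congenital disorder of glycosylation, was at 52.2, 50.8, 38.9 and 50.5 CPM against 57.4, 53.4 and 48.9 CPM (log2 fold change 0.15). Flox/flox mouse 3 had the lowest Pmm2 of all mice. Mpi, the isomerase that feeds both, ranged from 9.04 to 11.1 and from 7.11 to 9.41 CPM (log2 fold change -0.28).

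Sugars used on the lumenal face are first loaded onto dolichol phosphate, and 1 of 5 genes of this step was called, lower. Mpdu1 (NCBI gene 24070), which is required for the use of the loaded mannose and glucose, stood at 67.5, 59.6, 56.2 and 72.4 CPM in flox/flox mice 1 to 4 and at 32.1, 33.6 and 41.4 CPM in hep-/- mice 1 to 3. All livers labelled hep-/- lay below all controls, with a log2 fold change of -0.84 ± 0.18 (SE; adjusted p = 0.0140, edgeR). The 3 subunits of dolichol-phosphate-mannose synthase did not move together. Dpm2, an accessory subunit, was at 16.8, 14.7, 12.8 and 17.1 CPM against 23.5, 24.0 and 19.8 CPM. The groups did not overlap and the fitted change was upward, 0.55 ± 0.18 (SE) on the log2 scale, but Dpm2 was not called (adjusted p = 0.0627, edgeR). Dpm3, the other accessory subunit, overlapped (log2 fold change 0.31). Dpm1, the catalytic subunit, was below 1 CPM in every liver, with 22, 29, 27 and 34 counts against 5, 11 and 17, and at this depth its fitted change of -1.0 carried a standard error of 0.56 (adjusted p = 0.240, edgeR). Of its 7489 annotated exonic bases, 895 are shared with Gm20716 on the same strand. Alg5, which loads glucose, ranged from 31.5 to 41.4 and from 26.3 to 37.4 CPM (log2 fold change -0.24).

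On the cytosolic face, the enzyme that starts the chain was lower and the enzyme that ends the cytosolic stage was higher. Dpagt1 (NCBI gene 13478), which attaches the first sugar to dolichol phosphate and is the target of tunicamycin, stood at 23.4, 24.7, 23.3 and 19.4 CPM in flox/flox livers and at 14.3, 12.9 and 15.2 CPM in livers labelled hep-/-. The groups did not overlap, and the log2 fold change was -0.68 ± 0.18 (SE; adjusted p = 0.0270, edgeR). The call was lost without flox/flox mouse 2 or 3 or hep-/- mouse 1 or 2. Alg11 (NCBI gene 207958), the mannosyltransferase that completes the cytosolic form, was the only one of the 41 genes called higher. Its levels were 18.6, 20.96, 19.3 and 18.5 CPM against 30.3, 27.7 and 36.1 CPM. Every liver labelled hep-/- lay above every control, with a log2 fold change of 0.70 ± 0.17 (SE; adjusted p = 0.0212, edgeR), and the call was lost without flox/flox mouse 2 or 4 or hep-/- mouse 3. On the FPKM scale, in which mitochondrial reads are part of the total, Alg11 was not called (log2 fold change 0.47 with a pseudocount of 1 and 0.56 with 0.1, limma).

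**Figure D2:**
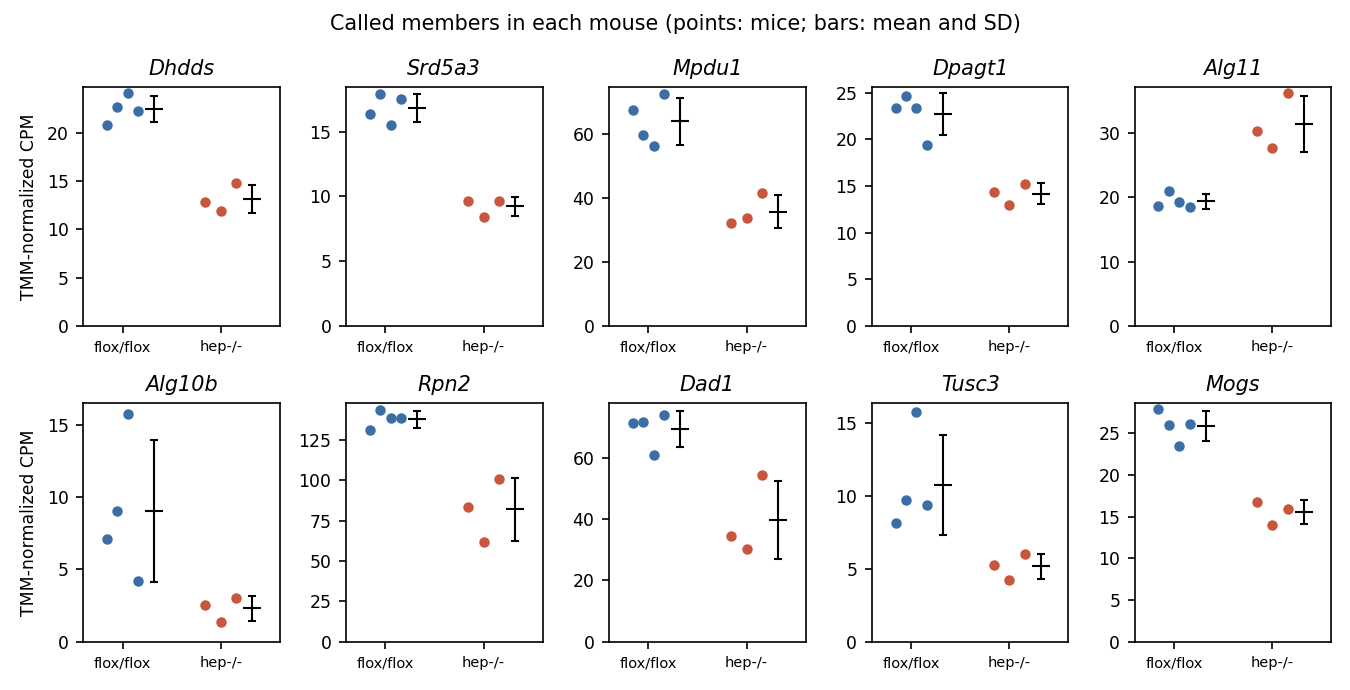
TMM-normalized CPM of the 10 called genes in each mouse, with the mean and SD of each group (flox/flox, n = 4; hep-/-, n = 3) beside the points and a separate linear axis from 0 for each gene. In 9 panels all livers labelled B4galt1 hep-/- lie below all flox/flox livers, and in the panel of Alg11 they lie above them.

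The other genes of the cytosolic stage were not called. Alg13 and Alg14, which together add the next N-acetylglucosamine, overlapped between groups. Alg13 was at 2.25, 2.96, 2.76 and 2.49 CPM against 4.03, 1.93 and 2.40 CPM (log2 fold change 0.09), and Alg14 at 10.3, 12.9, 11.2 and 12.6 CPM against 12.1, 5.61 and 11.7 CPM (log2 fold change -0.26). Hep-/- mouse 1 had the highest Alg13 and hep-/- mouse 2 the lowest of both. Alg1 and Alg2, which add the inner mannoses, had log2 fold changes of -0.21 and -0.20 and overlapping levels.

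On the lumenal face, 1 of 6 genes was called. Alg10b (NCBI gene 380959), which adds the terminal glucose that the OST recognizes, showed the largest fold difference of the 41 genes. It stood at 7.08, 9.06, 15.8 and 4.21 CPM in flox/flox mice 1 to 4 and at 2.56, 1.36 and 3.03 CPM in hep-/- mice 1 to 3. Controls varied widely, and flox/flox mouse 4 came close to hep-/- mouse 3 without overlap. The log2 fold change was -1.97 ± 0.45 (SE; adjusted p = 0.0158, edgeR), and leaving out each mouse in turn gave -1.55 to -2.21. With limma on log2(FPKM + 1) the change was -1.09, called where 3 mice reached an FPKM of 1 and not where any gene above 0 was kept (adjusted p = 0.1001). Alg10b passed the filter at an FPKM of 1 through the controls alone (1.06 to 4.57, against 0.39 to 0.71 in livers labelled hep-/-). That call therefore adds no separate support. Flox/flox mouse 3, which had the highest macrophage and endothelial marker sums, also had the highest Alg10b. Without that mouse the log2 fold change was -1.55, still called, and the part of those cells in it was not tested. An annotated microRNA, Mir7648, shares 53 of its 6644 exonic bases. Alg6 and Alg8, which add the glucoses before it, had log2 fold changes of -0.40 and 0.04, and the levels of Alg6 did not overlap (5.29 to 7.88 against 4.54 to 5.22 CPM). Among the lumenal mannosyltransferases, Alg3 and Alg9 overlapped (log2 fold changes -0.05 and -0.21). Alg12 was at 9.24, 6.20, 7.52 and 6.47 CPM against 10.7, 12.5 and 11.7 CPM. It was higher in every liver labelled hep-/- than in every control, but narrowly missed the call (log2 fold change 0.66 ± 0.22, SE; adjusted p = 0.0597, edgeR), and passed it without flox/flox mouse 1. DESeq2 and voom also called Alg12 higher. Alg12 and Dpm2 were the uncalled genes with the lowest adjusted p.

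Alg12 was also the single gene of the 36 promoters with a complete ERSE, which 0.119% of all promoters held. Its promoter is shown for that reason, at chr15:88819319-88819568 on the minus strand, with the element, 220 to 202 bases before the start, in capitals.
Alg12: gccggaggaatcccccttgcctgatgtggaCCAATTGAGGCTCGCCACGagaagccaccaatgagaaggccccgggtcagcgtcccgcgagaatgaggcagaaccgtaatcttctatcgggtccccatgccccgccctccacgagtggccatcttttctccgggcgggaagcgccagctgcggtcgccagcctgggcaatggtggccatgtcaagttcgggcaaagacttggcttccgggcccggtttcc
The variant ERSE-II was in 0 of the 36 promoters and in 0.0365% of all.

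The OST was the largest of the 7 steps, with 10 of its genes among the 41, and its summed mRNA was lower than in the controls. Of these 10 genes, 3 were called lower by edgeR and 0 higher (0 also at an unadjusted p under 0.05 and by DESeq2), 9 had fitted changes below 0 and 7 separated the groups without overlap, all with livers labelled hep-/- lower. Among all tested genes 7.83% were called lower, 48.7% had fitted changes below 0 and 15.0% separated the groups with livers labelled hep-/- lower. The dolichol step had larger shares called lower (40% against 30% for the OST) and fitted below 0 (100% against 90%). The summed level of the 10 genes was 602, 684, 699.5 and 660.0 CPM in flox/flox mice 1 to 4 and 534, 423 and 539 CPM in hep-/- mice 1 to 3, without overlap. The median log2 fold change of the 10 genes was -0.47. Krtcap2 and Tmem258, OST subunits outside the 41 genes, were not called. Krtcap2 was higher in every liver labelled hep-/- than in every control, at 30.8 to 38.9 against 27.5 to 29.3 CPM. Its log2 fold change was 0.32 (adjusted p = 0.200, edgeR). Tmem258 overlapped between groups (log2 fold change -0.07).

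Rpn2 (NCBI gene 20014), ribophorin II, a structural subunit shared by both forms of the enzyme, stood at 131, 144, 138 and 139 CPM in flox/flox livers and at 83.6, 61.9 and 101 CPM in livers labelled hep-/-. Controls lay within a narrow band and all livers labelled hep-/- below it, with a log2 fold change of -0.75 ± 0.20 (SE; adjusted p = 0.0306, edgeR). Its exons share 242 of 4430 bases with Mroh8 on the other strand. The call held without flox/flox mouse 1 and without hep-/- mouse 3, and was lost without each of the other 5 mice. Dad1 (NCBI gene 13135), a small subunit first known as a defender against cell death, gave 71.4, 71.7, 60.7 and 73.8 CPM against 34.5, 30.3 and 54.2 CPM. Hep-/- mouse 3 came nearest to the controls, and the log2 fold change was -0.81 ± 0.22 (SE; adjusted p = 0.0316, edgeR), lost without flox/flox mouse 2 or 4 or hep-/- mouse 1 or 2. Tusc3 (NCBI gene 80286), a thioredoxin-like subunit of the STT3B form, gave 8.14, 9.71, 15.8 and 9.35 CPM against 5.26, 4.25 and 5.99 CPM. Flox/flox mouse 3 was the highest, and the groups did not overlap. The log2 fold change of Tusc3 was -1.06 ± 0.28 (SE; adjusted p = 0.0274, edgeR) and fell to -0.81, without a call, when that mouse was left out. The Tusc3 call was also lost without flox/flox mouse 2 or hep-/- mouse 1 or 2, and with limma on log2(FPKM + 1) where any gene above 0 was kept (-0.72; adjusted p = 0.0866). Flox/flox mouse 3 was also the mouse with the highest macrophage and endothelial marker sums.

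The catalytic subunits were not called by edgeR, DESeq2 or voom, and 1 of the 3 limma fits on FPKM, with a pseudocount of 0.1, called Stt3a lower (log2 fold change -0.63; adjusted p = 0.0255). Stt3a, which acts on chains as they enter the ER, was at 60.5, 72.4, 77.9 and 63.3 CPM against 55.6, 40.0 and 49.3 CPM (log2 fold change -0.50 ± 0.19, SE; adjusted p = 0.0878, edgeR). Stt3b, which glycosylates sites that were skipped, was at 83.9, 105, 108 and 85.2 CPM against 69.3, 72.1 and 69.8 CPM (log2 fold change -0.44 ± 0.18, SE; adjusted p = 0.111, edgeR). Neither overlapped between groups. Rpn1 and Ddost, structural subunits, also did not overlap, with smaller log2 fold changes of -0.31 and -0.32. Ostc, a subunit of the STT3A form, overlapped between groups (log2 fold change -0.57; adjusted p = 0.117, edgeR), but was called lower by limma on FPKM with a pseudocount of 1 (-0.65; adjusted p = 0.0378) or 0.1 (-0.68; 0.0373) where 3 mice reached an FPKM of 1. Ost4, the smallest subunit, also overlapped (log2 fold change -0.09), with 53.2% of its exonic bases shared with Agbl5 on the other strand. Magt1, the relative of Tusc3 that can take its place in the STT3B form, was the only one of these 10 genes with a fitted change above 0. It was at 32.1, 36.9, 49.2 and 49.1 CPM against 67.8, 57.0 and 47.6 CPM, with hep-/- mouse 3 inside the control range (log2 fold change 0.46 ± 0.21, SE; adjusted p = 0.153, edgeR).

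Levels per gene length put the subunits on one scale. The deposited FPKM values (counts per length of the gene and size of the library, with mitochondrial reads in the total) averaged 93.5 ± 9.86 (SD, n = 4) for Ost4 in flox/flox livers, 34.3 ± 3.36 for Ddost, 32.1 ± 2.09 for Rpn2, 25.2 ± 6.40 for Ostc, 23.1 ± 1.44 for Rpn1 and 22.7 ± 3.60 for Stt3b. They were 19.3 ± 1.84 for Dad1, 12.3 ± 1.77 for Stt3a, 9.71 ± 1.77 for Magt1 and 2.56 ± 0.89 for Tusc3. Differences between genes within a liver were not tested. Ddost lay above Rpn2 in every control, and Stt3a above Magt1 in every control but mouse 4. The order of Ostc, Rpn1 and Stt3b varied between controls. Dad1 lay above Ostc in flox/flox mouse 1 and above Stt3b in flox/flox mouse 4. In livers labelled hep-/- the FPKM means were 17.3 ± 2.44 (SD, n = 3) for Rpn2, 9.96 ± 2.43 for Dad1, 12.3 ± 2.55 for Magt1 and 1.11 ± 0.08 for Tusc3. Magt1 lay below Dad1 in every control, while among livers labelled hep-/- it lay above Dad1 in mice 1 and 2 and below it in mouse 3, and the means of the 2 genes there did not differ beyond their spread.

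**Figure D3:**
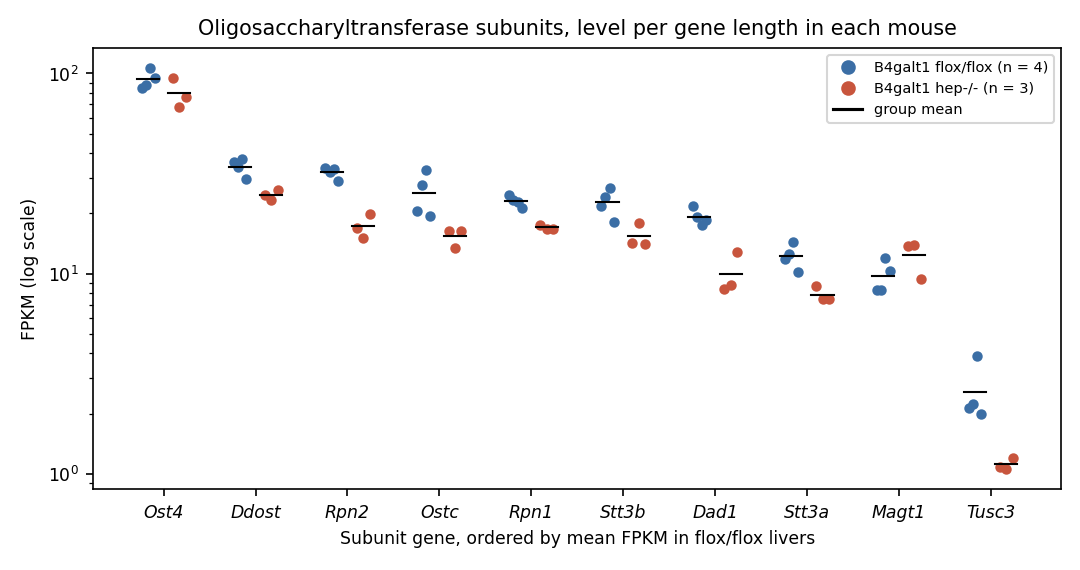
FPKM (log axis) of the 10 oligosaccharyltransferase genes in each mouse, ordered by the mean in B4galt1 flox/flox livers, with horizontal lines for the group means. Means run from 93.5 for Ost4 to 2.56 for Tusc3 in flox/flox livers, and the mean of livers labelled B4galt1 hep-/- lies below that of controls for every gene but Magt1.

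After transfer, the first glucose is removed by Mogs, the next ones by Ganab, and Uggt1 puts a glucose back on proteins that are not yet folded. Mogs (NCBI gene 57377), glucosidase I, stood at 27.9, 26.0, 23.5 and 26.1 CPM in flox/flox mice 1 to 4 and at 16.8, 14.0 and 15.95 CPM in hep-/- mice 1 to 3. Both groups were tight and far apart, with a log2 fold change of -0.74 ± 0.17 (SE; adjusted p = 0.0181, edgeR), lost without flox/flox mouse 2 or hep-/- mouse 2. Ganab, the catalytic subunit of glucosidase II, ranged from 98.4 to 128 and from 105 to 144 CPM, with a fitted change in the other direction (log2 fold change 0.26; adjusted p = 0.373, edgeR). Uggt1 was at 41.6, 37.7, 45.5 and 28.4 CPM against 33.0, 35.4 and 34.3 CPM (log2 fold change -0.16). Its relative Uggt2 was near 1 CPM in every liver, at 1.26, 1.18, 1.34 and 1.58 CPM against 0.812, 1.45 and 1.41 CPM (log2 fold change -0.13), and neither was called. The promoter of Mogs is shown as that of the lower trimming gene, at chr6:83115256-83115505 on the plus strand, with the UPR element core, 34 to 28 bases before the start, in capitals.
Mogs: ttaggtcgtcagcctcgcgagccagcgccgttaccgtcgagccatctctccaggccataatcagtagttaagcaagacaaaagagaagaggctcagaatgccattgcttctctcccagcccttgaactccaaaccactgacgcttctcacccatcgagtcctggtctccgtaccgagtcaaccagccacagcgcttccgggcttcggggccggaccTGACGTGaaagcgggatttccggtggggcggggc

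Ratios of 2 related genes within a liver do not depend on library scaling, and 7 pairs of subunits or relatives were compared by FPKM ratio with a two-sided exact permutation test over the 35 splits of the mice. The Magt1 to Tusc3 ratio differed most. It was 3.88, 3.74, 3.07 and 5.16 in flox/flox mice 1 to 4 and 12.7, 13.2 and 7.82 in hep-/- mice 1 to 3. The geometric means were 3.89 and 10.9, a 2.81-fold difference with no overlap (exact p = 0.0286, the smallest possible; 0.200 after Benjamini-Hochberg adjustment over the 7 pairs), and the log2 difference of 1.49 stayed between 1.35 and 1.73 when each mouse was left out. The difference was larger than the spread between mice but did not pass the correction, and at the smallest possible p a lone pair cannot pass it with 7 pairs. The Stt3a to Stt3b ratio was 0.543, 0.519, 0.542 and 0.559 in controls and 0.605, 0.418 and 0.533 in livers labelled hep-/-, with a log2 difference of -0.08 (exact p = 0.686; adjusted 0.943) that ranged from -0.20 to 0.07 when each mouse was left out. The controls agreed closely on this ratio, and the livers labelled hep-/- lay on both sides of them.

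The other 5 pairs did not pass either. Gmppa to Gmppb ratios were 2.68, 2.75, 1.52 and 2.08 against 2.77, 4.67 and 3.02, almost touching although they did not overlap (log2 difference 0.62; exact p = 0.114, adjusted 0.300). Dhdds to Nus1 ratios were 0.629, 0.536, 0.417 and 0.463 against 0.291, 0.469 and 0.301 (log2 difference -0.55; exact p = 0.143, adjusted 0.300). Alg13 to Alg14 ratios were 0.281, 0.297, 0.319 and 0.254 against 0.428, 0.444 and 0.265 (log2 difference 0.36; exact p = 0.171, adjusted 0.300). In both of these pairs 1 liver labelled hep-/- lay within the control range. Pmm1 to Pmm2 ratios ran from 0.104 to 0.149 and from 0.118 to 0.146 (exact p = 0.886, adjusted 0.943), and Uggt1 to Uggt2 ratios from 14.0 to 26.6 and from 18.9 to 31.8 (exact p = 0.943, adjusted 0.943), so Pmm2 and Uggt1 were the main forms by FPKM in every liver.

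**Figure D4:**
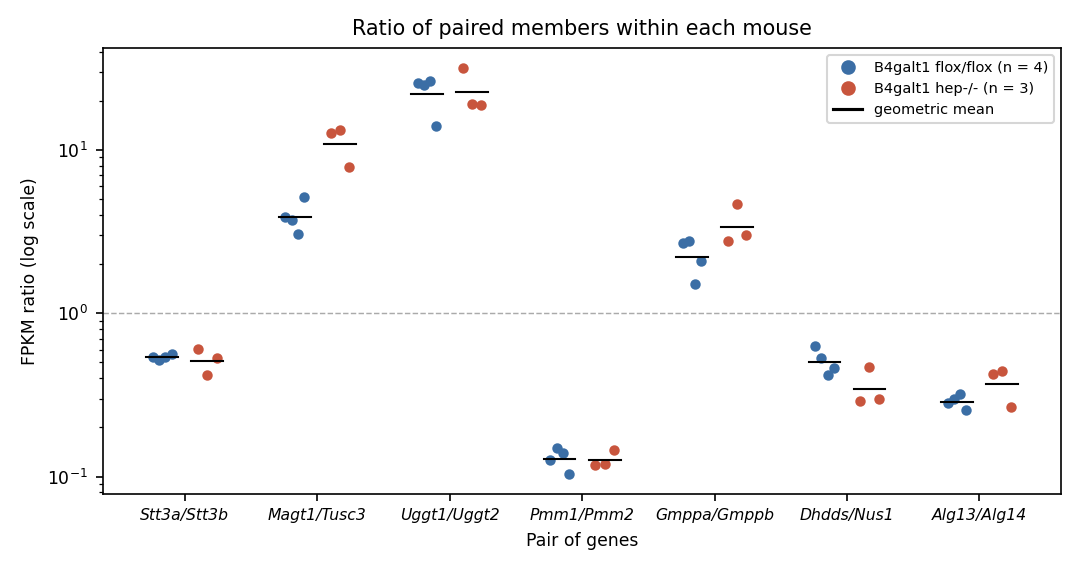
FPKM ratio (log axis) of 7 pairs of genes within each mouse, with horizontal lines for the geometric means of B4galt1 flox/flox livers (n = 4) and livers labelled B4galt1 hep-/- (n = 3); the dashed line marks equal levels. The Magt1 to Tusc3 ratio lies at 3.07 to 5.16 in flox/flox livers and at 7.82 to 13.2 in livers labelled hep-/-, while the Stt3a to Stt3b ratio stays between 0.418 and 0.605 in all livers.

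Genes that work beside the 41 were examined from a list of 24 other N-glycosylation genes, which takes in further OST subunits, ER lectins, mannosidases, cargo receptors and the hexosamine pathway. Of these, 4 were called by edgeR, all lower, and 22 of 24 had fitted changes below 0 (91.7%, against 48.7% of all tested genes). The median log2 fold change was -0.24. The calls are 16.7% of the list, against 15.8% of all tested genes called in either direction and 7.83% called lower. Canx, calnexin, the lectin that holds glycoproteins with a single remaining glucose while they fold, had the largest change of the list (log2 fold change -1.23; adjusted p = 0.0106, edgeR). Also lower were Mlec, malectin, which binds glycans with remaining glucoses (log2 fold change -0.67; adjusted p = 0.0347, edgeR), and Lman2, a cargo receptor between ER and Golgi (-0.63; 0.0472). Levels of Canx were 168, 211, 256 and 208 CPM in flox/flox mice 1 to 4 and 93.0, 60.5 and 116 CPM in hep-/- mice 1 to 3, so that each liver labelled hep-/- lay below each control. The summed level of the 24 genes was 2143 to 2352 CPM in controls and 1490 to 1924 CPM in livers labelled hep-/-, without overlap. Leaving out any of the 7 mice except hep-/- mouse 3 reduced the 4 calls to 1 or 2, with 1 without flox/flox mouse 1 or 2 or hep-/- mouse 1 or 2.

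ER chaperone and UPR genes, which are induced when unfolded proteins build up in the ER, were set beside them from a list of 16. Calls were made for 4, 2 in each direction (25.0% of the list, against 15.8% of all tested genes), and 13 had fitted changes below 0 (81.2%, against 48.7%). Dnajb9, an ER co-chaperone (log2 fold change -1.17; adjusted p = 0.0467, edgeR; levels of 1 liver overlapped), and Pdia6, a protein disulfide isomerase (-0.72; 0.0454), were lower. Atf4, the central transcription factor of the integrated stress response (0.94; 0.0321), and Ddit3, a gene it induces (0.73; 0.0238), were higher. Atf4 was at 82.8, 96.6, 63.4 and 132 CPM in controls and 183, 138 and 219 CPM in livers labelled hep-/-, without overlap. Hspa5, Hsp90b1 and the other 10 genes were not called by edgeR. Of these 12, Dnajc3, a co-chaperone of the ER (log2 fold change -0.65; adjusted p = 0.106, edgeR), was called lower by voom and by 2 of the 3 limma fits on FPKM. The summed level of the 16 genes overlapped between groups (1602 to 2190 against 1285 to 1763 CPM). The 4 calls fell to 0 without flox/flox mouse 2 or 3, to 1 without flox/flox mouse 4 or hep-/- mouse 2 and to 2 without hep-/- mouse 1.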

How the data were processed

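Liver RNA of 7 mice was analysed, 4 labelled WT (B4galt1 flox/flox) and 3 labelled B4-HKO (B4galt1 hep-/-), with 1 library per mouse and groups taken from the sample labels. The authors extracted RNA with TRIzol and built libraries with a VAHTS Universal V6 kit. The submitters' processing notes name fastp, HISAT2, HTSeq, DESeq2, R 3.2.0 and the build GRCm39, and the annotation and strand setting are not given in the sources used here. The authors deposited counts, whole numbers per gene and mouse without normalization, and FPKM values for the same table of genes. For the 13374 genes that reached 10 counts in each of the mice, the deposited FPKM equalled the count over the total and a fixed gene length, within 7.2e-06 percent. No 2 libraries were alike within sampling noise. All columns of sample values were used.

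Genes were kept by filterByExpr (minimum count 10, minimum total 15), which left 15179 of 23347, and scaled by TMM. The quasi-likelihood F-test of edgeR 4.0.16 (R 4.3.3) was fitted with the group as its only term, and p-values were adjusted by Benjamini-Hochberg. Calls needed an adjusted p below 0.05 together with a log2 change beyond 0.58 in either direction, the thresholds of the study. Standard errors came from the F statistic. In flox/flox livers 3 counts equal 0.0690 to 0.0848 CPM, and in livers labelled hep-/- 0.0905 to 0.0987 CPM. FPKM ratios were compared by an exact permutation test. Scripts were tested on simulated data first. Exon overlaps came from GENCODE M21 (GRCm38), and promoters from RefSeq (GRCm38.p6), 6 of the 41 genes having none in the table used.

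Alternatives comprised DESeq2 1.42.0, scaling by RLE or upper quartile, 2 other count filters, removal of the mitochondrially encoded genes, voom with quality weights for the samples, and limma 3.58.1 on FPKM. The limma fits used a pseudocount of 1 or 0.1 where 3 mice reached an FPKM of 1, and a pseudocount of 1 where any gene above 0 was kept. Further alternatives were the replicate number as a block, a log2 threshold of 1 and each mouse left out in turn. Each mouse was a separate animal, and p-values measure the spread between these mice. The 41 genes, the other lists and the pairs were chosen with earlier results of these data known. The text names every one of the 41 genes, and gives values in each mouse for those called and for both genes of each pair. It also names the 2 uncalled genes with the lowest adjusted p. Called genes of the other lists are named with their log2 fold changes, apart from 1 that is counted but not reported here. Values in each mouse of Dolk, Dpm1, Dpm2, Alg12, Canx and Atf4, and the log2 fold changes of Dnajc3, Krtcap2 and Tmem258, were added after their values had been seen.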

Additional observations from a re-analysis of the deposited data

Results flagged for a closer look

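In groups of 4 mice, 74 values (among them the CPM of the genes in flox/flox livers, their ratios and the summed levels of the gene and marker lists) were examined for a mouse far from the others, and chance alone flags about 1 in 20. There were 3. The level of Pmm2 in flox/flox mouse 3 was 38.9 CPM, where the other flox/flox mice lay between 50.5 and 52.2 CPM. The gap was 0.872 of the whole range. The Uggt1 to Uggt2 ratio of FPKM in flox/flox mouse 4 was 14.0, where the other flox/flox mice lay between 25.0 and 26.6, and the gap was again 0.872 of the range. Pmm2, Uggt1 and Uggt2 were not called. The summed level of the endothelial markers in flox/flox mouse 3 was 310.4 CPM, where the other flox/flox mice lay between 77.9 and 117 CPM, a gap of 0.831 of the range.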

How the results depend on the processing

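Of the 41 genes, 10 were called, 9 lower and 1 higher. Leaving out each mouse in turn gave 2 to 11 calls, 2 to 9 lower and 0 to 2 higher. An absolute log2 fold change over 1 left 2, both lower, and 0 higher. Genes called higher numbered 2 with DESeq2 and with voom and 0 in the 3 limma fits on FPKM, where the median of all genes shifted by -0.07 to -0.13 and 18.2% to 24.5% of all calls were higher, against 50.5% with edgeR. The median of the genes moved from -0.24 to -0.37 with log2(FPKM + 0.1). Same-numbered mice did not deviate together (correlations -0.34, -0.03 and 0.08), so numbers do not pair the mice. With the replicate number as a block, 2 of the genes were called, 2 lower and 0 higher, and 1267 of all genes, against 2404 (1330 with limma on FPKM for all genes). Calls with the block were 4.88% of the 41 genes and 8.35% of all genes. In the lower direction they were 4.88% against 4.05%. Of the other N-glycosylation genes, 4 were called, all lower, with 7 by limma on log2(FPKM + 1) and on log2(FPKM + 0.1), 1 with the block, 1 over a log2 change of 1, and 1 to 4 when a mouse was left out. ER chaperone and UPR genes gave 4 calls, with 1 (1 lower, 0 higher) by limma for all genes above 0, 1 (0 lower, 1 higher) with the block, 1 (1 lower, 0 higher) over a log2 change of 1, 1 higher and 3 lower by the other limma fits, and 0 to 4, 0 to 2 lower and 0 to 2 higher when a mouse was left out. B4galt1 passed the threshold by limma at -0.67 and -0.73 and, without hep-/- mouse 3, at -0.96; leaving out each mouse gave -0.96 to -0.30. The cause was not tested. The sign turned for these uncalled genes near 0: Dolpp1 (0.044 with the block, -0.16 to 0.14 when a mouse was left out), Pmm1 (-5.2e-05 by limma), Gmppa (0.0061 with DESeq2 and RLE, 0.029 with upper-quartile scaling, 0.010 with 10 counts in every mouse, 0.019 with the block, -0.21 to 0.12 when a mouse was left out), Alg13 (-0.051 and -0.090 by limma, -0.29 to 0.30), Alg8 (-0.053 and -0.059 by limma, -0.097 to 0.16), Ost4 (0.033 with voom, -0.28 to 0.084), and, when a mouse was left out, Nus1 (-0.39 to 0.044), Alg14 (-0.46 to 0.020), Alg3 (-0.21 to 0.10) and Uggt2 (-0.27 to 0.084). No called gene changed sign. Counting error matters for Dpm1, whose libraries held 5 to 34 counts.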
